A study of Mus musculus with 2 samples.

Results

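The regions described here were the Tle3 peaks of mouse chromosome 11, taken as every row of the deposited peak list that lies on that chromosome. They numbered 439 of the 5136 peaks in the list. Tle3 binding had been mapped by chromatin immunoprecipitation and sequencing in bone marrow cells sorted as lineage negative and cKit positive, a fraction that holds blood stem and progenitor cells. The cells came from wild-type C57BL/6 mice 8 to 10 weeks old, and the same strain, genotype and age applied to both libraries. There was 1 library made with an anti-Tle3 antibody and 1 control library, which the labels call normal IgG in some fields and input in others. The cells are named hematopoietic progenitors in 1 label field and T cells in another, and a peak list holds no expression with which to check either name. The number of mice behind each library is not given in the labels.

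Tle3 is a Groucho family corepressor. It does not bind DNA itself and is brought to chromatin by transcription factors of the RUNX, HES and TCF/LEF families, where it recruits histone deacetylases and represses nearby genes. Mouse chromosome 11 is rich in genes and carries loci of blood cell regulators such as Ikzf1, Stat3, Stat5a, Rara and Tcf7, together with large families of olfactory receptor and keratin genes that blood cells are not known to use.

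The 6 sequences below show promoters of genes that had a peak at the start. Each is the 250 bases before an annotated gene start, 5′ to 3′ on the gene's strand, taken from the RefSeq promoter table of build GRCm38.p6. Polm, Dhrs11, Srsf2 and Kpnb1 start at 4 of the 20 highest scoring peaks of the chromosome. Mnt and Rel are transcription factor genes with a peak at the start. Capitals mark matches, on either strand, to RUNX (TGTGGT or TGCGGT), TCF/LEF (CTTTGAA or CTTTGAT), HES (CACGTG or CACGCG), ETS (CCGGAAG) or NRF1 (TGCGCA) letters. Polm held none of these in the window shown, and a match is a description of the letters, not a measured binding site.
Polm (GRCm38.p6 chr11:5838017-5838266, minus strand): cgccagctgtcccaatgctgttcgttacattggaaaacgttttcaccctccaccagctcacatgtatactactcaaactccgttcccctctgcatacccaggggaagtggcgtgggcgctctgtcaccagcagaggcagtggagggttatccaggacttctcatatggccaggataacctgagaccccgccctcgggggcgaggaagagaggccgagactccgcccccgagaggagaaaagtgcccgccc
Dhrs11 (GRCm38.p6 chr11:84829004-84829253, minus strand): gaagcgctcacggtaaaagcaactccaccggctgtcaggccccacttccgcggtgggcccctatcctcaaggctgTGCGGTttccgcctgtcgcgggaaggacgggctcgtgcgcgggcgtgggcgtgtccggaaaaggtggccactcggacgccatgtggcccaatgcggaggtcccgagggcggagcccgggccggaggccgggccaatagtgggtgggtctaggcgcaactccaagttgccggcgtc
Srsf2 (GRCm38.p6 chr11:116853095-116853344, minus strand): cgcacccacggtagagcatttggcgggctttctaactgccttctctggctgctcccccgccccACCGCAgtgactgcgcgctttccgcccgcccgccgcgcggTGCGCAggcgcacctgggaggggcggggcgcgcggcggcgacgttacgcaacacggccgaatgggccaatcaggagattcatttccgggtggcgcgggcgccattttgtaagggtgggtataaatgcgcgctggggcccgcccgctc
Kpnb1 (GRCm38.p6 chr11:97187893-97188142, minus strand): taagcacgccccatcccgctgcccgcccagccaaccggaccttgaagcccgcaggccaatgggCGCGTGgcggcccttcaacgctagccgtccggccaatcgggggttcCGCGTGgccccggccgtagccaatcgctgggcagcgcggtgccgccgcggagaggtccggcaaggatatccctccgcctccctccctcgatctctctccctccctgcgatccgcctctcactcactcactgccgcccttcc
Mnt (GRCm38.p6 chr11:74830674-74830923, plus strand): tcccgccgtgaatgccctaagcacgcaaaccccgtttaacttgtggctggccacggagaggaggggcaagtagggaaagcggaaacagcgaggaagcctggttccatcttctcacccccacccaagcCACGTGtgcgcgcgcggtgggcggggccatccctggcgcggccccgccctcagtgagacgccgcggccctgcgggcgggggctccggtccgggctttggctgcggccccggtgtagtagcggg
Rel (GRCm38.p6 chr11:23770970-23771219, minus strand): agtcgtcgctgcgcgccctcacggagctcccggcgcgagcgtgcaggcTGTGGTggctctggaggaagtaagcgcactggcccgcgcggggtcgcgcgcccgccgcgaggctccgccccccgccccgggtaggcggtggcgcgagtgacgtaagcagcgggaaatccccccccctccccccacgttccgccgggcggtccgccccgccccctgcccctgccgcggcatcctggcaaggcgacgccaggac

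Peaks lay closer together on chromosome 11 than on most autosomes. It carried 3.72 peaks per megabase between its first and last peak (3.38 to 4.08, 95% Poisson counting interval), against a median of 2.15 and a highest value of 3.21, on chromosome 19, among the other 18 autosomes. The median gap between neighbouring peaks, edge to edge, was 87.8 kb, with quartiles of 23.3 and 227 kb. Over the other autosomes together the median gap was 123 kb, and chromosome 15 had the shortest at 80.1 kb. The upper quartile of 227 kb was below that of each other autosome, the nearest being 248 kb on chromosome 15. Density was uneven along the chromosome. From 3031829 to 33048080 there were 1.90 peaks per megabase, below the 2.15 median of the other autosomes. From 34016672 to 87912921 there were 3.53, and from 87945235 to 121038281 there were 5.80. The list comes from 1 Tle3 library, so there was no replicate and no test, and intervals here cover counting error only.

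**Figure D1:**
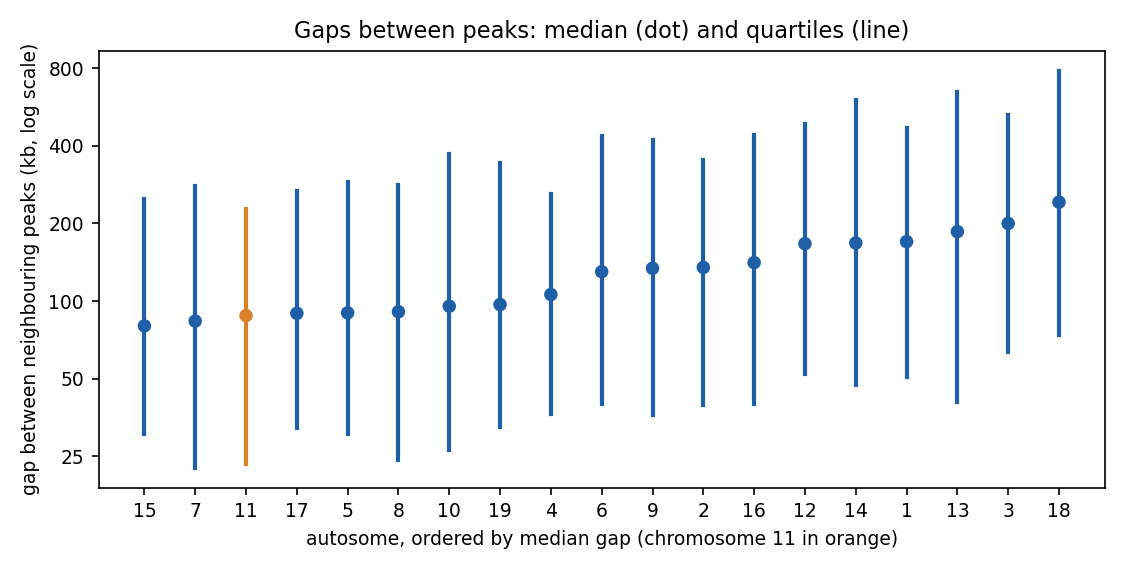
Gaps between neighbouring Tle3 peaks on each of the 19 autosomes, in kb on a log scale; the dot is the median and the line joins the quartiles. Chromosome 11, in orange, has the third shortest median (87.8 kb) and the lowest upper quartile (227 kb).

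The share of peaks with a close neighbour was above that of the other autosomes when pooled. Another peak lay within 10 kb of 28% of chromosome 11 peaks (exact 95% interval 23.9 to 32.5%), against 22.2% of all peaks in the list and 21.7% (20.6 to 22.9%) on the other autosomes. The shares of chromosomes 8 (26.9%), 7 (26.5%), 15 (26.3%), 10 and 14 (both 26.1%) lay inside the interval of chromosome 11, as did that of chromosome 9 (24.2%). Of the 438 gaps on the chromosome 24 (5.48%) were under 1 kb, against 3.56% elsewhere on the autosomes. Chaining peaks within 10 kb gave 316 single peaks, 37 pairs, 11 groups of 3 and 4 groups of 4.

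Single peaks were much like those elsewhere in strength and width. The authors gave each peak a MACS score, which rises as the p-value of the peak falls and starts at 50 in this list. On chromosome 11 a score of 100 or more was given to 23.2% of peaks (19.4 to 27.5%), against 24.5% of all peaks, and this share was 14th highest of 19 autosomes. The median score was 70.7, against 68.7 on the other autosomes. The median width was 676 bp, against 657 bp, and 10.9% of peaks were wider than 1000 bp, against 11.1% of all peaks.

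The peaks were gathered in dense stretches. In tiles of 1 Mb, 12 of 119 held 10 or more peaks, and these 12 tiles held 158 peaks (36.0%). The 20 fullest tiles together held at least 50% of all peaks of the chromosome. No peak fell in 34 tiles (28.6%), against 42.2% of tiles on the other autosomes. The 25 gaps of over 1 Mb, of 438 in all, took up 60.8 Mb, or 51.5% of the distance between the first and last peak. On the other autosomes 564 of 4639 gaps were over 1 Mb and took up 1528.8 Mb. Their share of the distance was not computed.

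To name genes, the list had to be set against the gene table at hand. The submitters' notes give the build of the list as mm9, while the RefSeq gene table is of GRCm38.p6, in which positions on chromosome 11 are displaced. A constant added to all positions of a stretch was therefore fitted along the chromosome, scoring how many peak midpoints then fell within 1 kb of either end of a protein-coding gene. The fit gave 3 stretches. From 3031829 to 33048080 the offset was 100.2 kb, from 34016672 to 87912921 it was 186.5 kb, and from 87945235 to 121038281 it was 138.5 kb. All positions of peaks, gaps and tiles in the text are in mm9 as deposited, and only the printed promoters carry GRCm38 positions.

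In the first stretch 31 of 57 midpoints (54.4%, 40.7 to 67.6%) lay at a gene end with the offset, against 3.51% after a further shift of 20 kb either way. In the second stretch 83 of 190 (43.7%, 36.5 to 51.1%) did, against 7.37% and 9.47%. In the third 88 of 192 (45.8%, 38.6 to 53.2%) did, against 13.0% and 8.85%. The interval at the offset lay above both shifted intervals in each stretch, so genes could be named in all 3. At any other constant more than 2 kb from the fitted one, out to 300 kb, the highest shares were 17.5%, 16.8% and 18.2%. The offset was chosen for a high share, so it was also fitted on the odd-numbered peaks alone: among the 217 even-numbered peaks the share was then 43.8% (37.1 to 50.7%), against 11.5% and 9.22% after the shifts. Offsets are known to about the 1 kb window, and where exactly between neighbouring peaks one gives way to the next is not known.

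**Figure D2:**
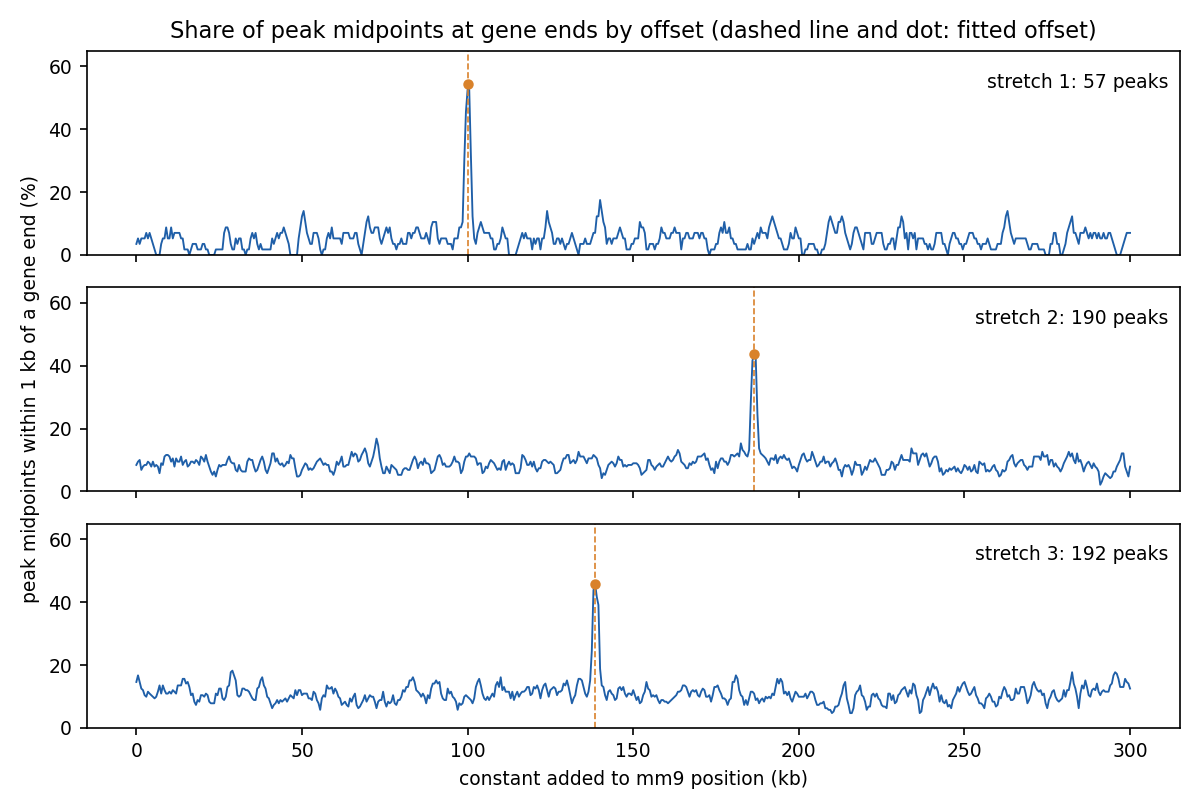
Share of peak midpoints within 1 kb of a protein-coding gene end (%) against the constant added to the mm9 position (kb), for the 3 stretches of chromosome 11. The dot marks the fitted constant, at 100.2, 186.5 and 138.5 kb, where the share was 54.4%, 43.7% and 45.8%.

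Tle3 peaks of chromosome 11 lay far more often at gene starts than the shifted midpoints did, and few lay at the far ends of genes. The promoter table gave a strand, and so a start, for 1252 of the 1578 protein-coding genes that could be placed. Within 1 kb of a start lay 209 of 439 peak midpoints (47.6%, 42.9 to 52.4%). After moving all midpoints by 20 kb down or up, 15 (3.42%) and 20 (4.56%) did, the number to set beside the 209 when a single named start is read. At the far end of a gene, and at no start, lay 10 peaks (2.28%, 1.10 to 4.15%), against 17 and 16 after the shifts, shares of 3.87% and 3.64% that lie inside that interval. The fit of the offset did not distinguish the 2 ends of a gene. A further 21 peaks lay at an end of a gene whose strand the table does not give.

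With the fitted offsets 127 midpoints lay less than 250 bp from a gene start, 56 lay at 250 to 500 bp and 26 at 500 to 1000 bp. After the shifts 4 and 7, 3 and 7, and 8 and 6 did. At 1000 to 2000 bp there were 15, against 16 and 11. The offsets were chosen to bring midpoints to gene ends, in steps of 250 bp, and are known to about 1 kb, so the bins are finer than the placement and describe the fit rather than the distance of a single peak.

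**Figure D3:**
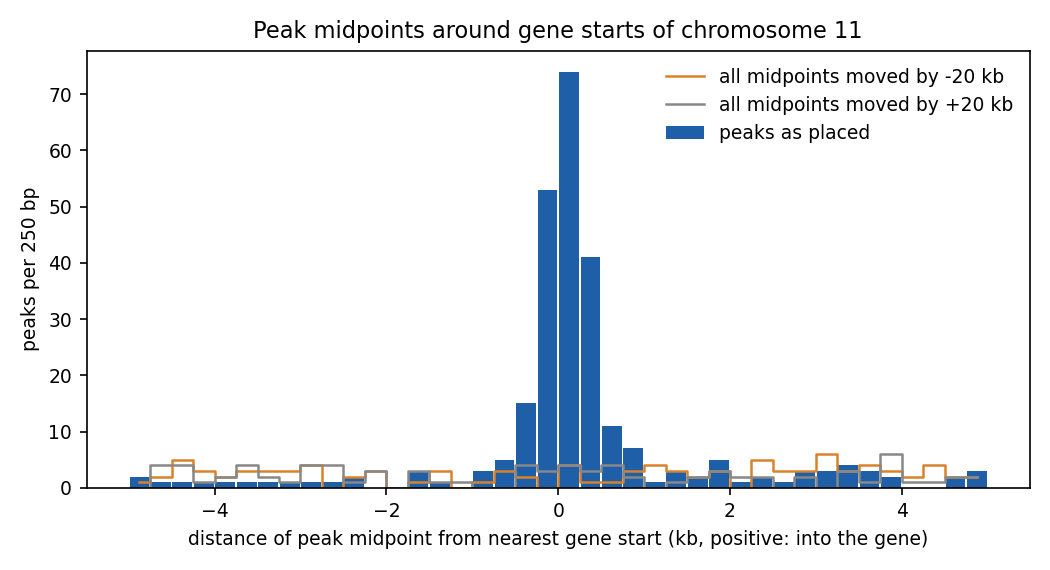
Number of Tle3 peak midpoints per 250 bp around the nearest gene start of chromosome 11 (x axis in kb, positive into the gene). Bars are peaks as placed, lines the same midpoints moved by 20 kb down or up; the bars reach 74 and 53 on either side of the start, while the lines stay at 4 or fewer in those bins. The bins are finer than the precision of the offsets.

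The other peaks lay inside genes or between them. Inside a protein-coding gene, away from its ends, lay 120 peaks (27.3%, 23.2 to 31.8%), and between genes lay 79 (18.0%, 14.5 to 21.9%). After the shifts 240 and 257 midpoints lay inside genes and 155 and 138 between them. These 199 peaks lay a median of 15 kb from the nearest start of a gene with a strand, with quartiles of 5.66 and 35.2 kb. Genes without a strand have no start in this count. Distances near such genes, as for the peaks inside Kdm6b, may be too long, and peaks at their inner starts count as inside. Peaks at starts had a median score of 73.0 and a median width of 734 bp. Those inside genes had 65.1 and 619 bp, and those between genes 69.3 and 642 bp. A score of 100 or more was given to 28.2% of the start peaks (22.2 to 34.9%), 19.2% of those inside genes (12.6 to 27.4%), 19% of those between genes (11 to 29.4%) and 0 of the 10 at far ends (upper limit of the exact interval 30.8%). By rank of score the share at starts was 50% of the first 20 peaks, 56.7% of ranks 21 to 110 (45.8 to 67.1%), 49.1% of ranks 111 to 220, 48.2% of ranks 221 to 330 and 37.6% of the 109 lowest (28.5 to 47.4%), and these intervals overlap.

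The strongest peaks included peaks at starts, inside genes and between them, and none at a far end. The highest score of the chromosome, 599.6, belonged to a peak between genes (108872634 to 108873594). The nearest gene before it was Axin2, a scaffold of the beta-catenin destruction complex and a widely used readout of Wnt signalling, whose near end lay 60.8 kb away. On its other side came Rgs9, a regulator of G protein signalling, at 214 kb. No peak lay at an end of Axin2 or inside it. The second highest score, 441, was at the start of Polm, which encodes DNA polymerase mu, used in end joining of broken DNA (5737013 to 5738255). The third, 436, lay between genes, 2.28 kb from Tac4, a tachykinin peptide gene (95119938 to 95121552). The fourth, 376, lay at the start of Arsg, an arylsulfatase gene, and at an end of Slc16a6, a transporter gene.

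Of the 20 highest scoring peaks 10 lay at gene starts, 3 inside genes, 6 between genes and 1 at an end of a gene model with no strand. The other starts among them belonged to Dhrs11 (score 305), Srsf2 and Mfsd11 (282.5), Eif4a1 (257), Kpnb1 (255), Sgsh (252), Mgat1 (237), Ddx5 and Cep95 (236) and Rffl (232). Srsf2 is a splicing factor, Eif4a1 a helicase of translation initiation, Kpnb1 the importin of nuclear import, and Mgat1 an enzyme of N-glycan synthesis. The peak at Srsf2 and Mfsd11 ran from 116713701 to 116715459, and that at Mgat1 from 49057068 to 49058318.

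Among strong peaks not within 1 kb of a start, 1 of score 323 lay inside Grb10, an adaptor of growth factor receptors (11925773 to 11926989). The midpoint of that peak lay 1.34 kb from the nearest annotated start, and offsets are known to about 1 kb. Inside Mafg, a small Maf partner of blood transcription factors, the peak at 120491279 to 120492511 scored 275. The peak at 98803063 to 98804146, inside Rara and at an end of the gene model Gm46294, scored 274. Unc13d, needed for granule release by killer lymphocytes, held a peak of score 223 (115938368 to 115939360). Between Cd300a and Cd300lb, receptor genes of myeloid cells, a peak scored 262 (114768767 to 114769544), at 5.71 kb from the end of Cd300a. The 5 widest peaks were those at the starts of Kpnb1 (1991 bp), Srsf2 and Mfsd11 (1759 bp), Cltc (1572 bp) and Mnt (1552 bp) and the 1 near Tac4 (1615 bp).

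Genes transcribed in opposite directions from neighbouring starts carried peaks more often. Of the 186 placed genes with a start of another gene on the opposite strand within 1 kb, 59 (31.7%, 25.1 to 38.9%) had a peak at a start, and of the other 1066 genes 162 (15.2%, 13.1 to 17.5%) did. The share over all placed genes with a strand was 17.7%. A gene in such a pair has a further start near its own within reach of the same peak, and the paired genes are not independent. Of the 209 peaks at starts 25 (12.0%, 7.89 to 17.1%) lay at starts of both strands, as at Ddx5 and Cep95 or at Pigw and Myo19 (84692924 to 84693914, score 198).

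Promoters at peaks were rich in CpG. The 260 annotated starts within 1 kb of a peak midpoint had a median GC content of 66.0% over the 300-base window, with quartiles of 60.6 and 71.8%. The other 1277 starts on the chromosome had 56.7%, with quartiles of 49.7 and 63.3%. The median number of CpG in the window was 27.0 against 14.0. The ratio of observed to expected CpG was above 0.6 in 88.1% (83.5 to 91.8%) of the former and 49.2% (46.4 to 52.0%) of the latter, against 47.6% of all 21263 promoters of protein-coding genes in the table.

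Shares of promoters that hold motif letters were counted over the 242 promoters of genes with a peak at an end, the 1295 promoters of the other genes of the chromosome, and all promoters of the table. RUNX letters were in 24.4% (19.1 to 30.3%), 20.4% (18.2 to 22.7%) and 21.6%. HES letters (CACGTG or CACGCG) were in 28.5% (22.9 to 34.6%), 20% (17.9 to 22.3%) and 18.6%. The family name is a label for the letters and does not show which factor reads them. ETS letters were in 17.8% (13.2 to 23.2%), 10.8% (9.17 to 12.6%) and 11.6%, and NRF1 letters in 12.4%, 11% and 9.74%. The GC box (GGGCGG), bound by Sp1 and its relatives, was in 69.8% (63.6 to 75.5%), 47.6% (44.9 to 50.4%) and 46.2%. TCF/LEF letters were in 2.89% (1.17 to 5.87%), 7.80% (6.40 to 9.40%) and 7.57%. The letters AGATAA, read by GATA factors, were in 4.96% (2.59 to 8.50%), 8.42% (6.96 to 10.1%) and 9.65%. Between the genes with and without a peak at an end the intervals were apart for HES, ETS, the GC box and TCF/LEF. TCF/LEF was lower with such a peak, and the others were higher. The intervals overlapped for RUNX, NRF1 and GATA. The set without includes genes with a peak at a start within the gene, such as Ikzf1 and Rara. For RUNX the share was 35.1% of the 74 promoters of genes with a peak of score 100 or more at an end. No interval was computed for that value, which lay above the interval of the other genes (18.2 to 22.7%). At that score HES (29.7%), ETS (16.2%), NRF1 (17.6%) and GC box (63.5%) shares also lay above the intervals of the other genes. For NRF1 that interval was 9.31 to 12.8%. TCF/LEF (2.70%) and GATA (6.76%) shares lay below theirs. Base composition was not taken into account. For GATA the intervals were apart when starts within 1 kb of a midpoint were counted, at 3.46% (1.59 to 6.47%) against 8.77% (7.28 to 10.5%). Both strands were searched, and matches of different motifs may overlap.

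Base composition moved with these shares, and its part in them was described by the following counts. For the 260 starts within 1 kb of a peak midpoint and the 1277 others, HES letters were in 30.8% (25.2 to 36.8%) and 19.4% (17.3 to 21.7%). ETS letters were in 17.3% (12.9 to 22.5%) and 10.8% (9.16 to 12.6%), the GC box in 75% (69.3 to 80.1%) and 46.3% (43.5 to 49.1%), and TCF/LEF letters in 1.92% (0.627 to 4.43%) and 8.07% (6.63 to 9.70%). RUNX letters were in 24.6% (19.5 to 30.3%) and 20.3% (18.1 to 22.6%).

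In the same sets, the promoters with a GC content over 60% numbered 198 and 471. There HES letters were in 33.3% (26.8 to 40.4%) and 29.1% (25 to 33.4%), and ETS letters in 19.7% (14.4 to 25.9%) and 15.9% (12.7 to 19.5%). The GC box was in 84.3% (78.5 to 89.1%) and 81.7% (78 to 85.1%), TCF/LEF letters in 2.02% (0.553 to 5.09%) and 3.18% (1.79 to 5.20%), and RUNX letters in 23.7% (18 to 30.3%) and 18% (14.7 to 21.8%). GATA letters were in 1.52% (0.314 to 4.36%) and 1.06% (0.346 to 2.46%), and NRF1 letters in 15.7% (10.9 to 21.5%) and 16.6% (13.3 to 20.2%). These intervals overlap for each of the 7. The set of starts and the GC limit were chosen after the data were seen.

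Peaks and genes rose together along the chromosome. Over the 119 tiles of 1 Mb Spearman's rank correlation between peaks and protein-coding genes starting in the tile was 0.80 and Pearson's r was 0.70, given as a description of tiles that share 1 library and 1 peak list. The 44 tiles with 0 to 5 genes held at most 3 peaks, and 29 of them were empty. The 32 tiles with 16 to 30 genes held 1 to 14 peaks with a median of 6.00. The 12 tiles with more than 30 genes held 0 to 20, with a median of 9.50. Without olfactory receptor and keratin genes, a choice made after the data were seen, the rank correlation was 0.83 and r was 0.80.

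**Figure D4:**
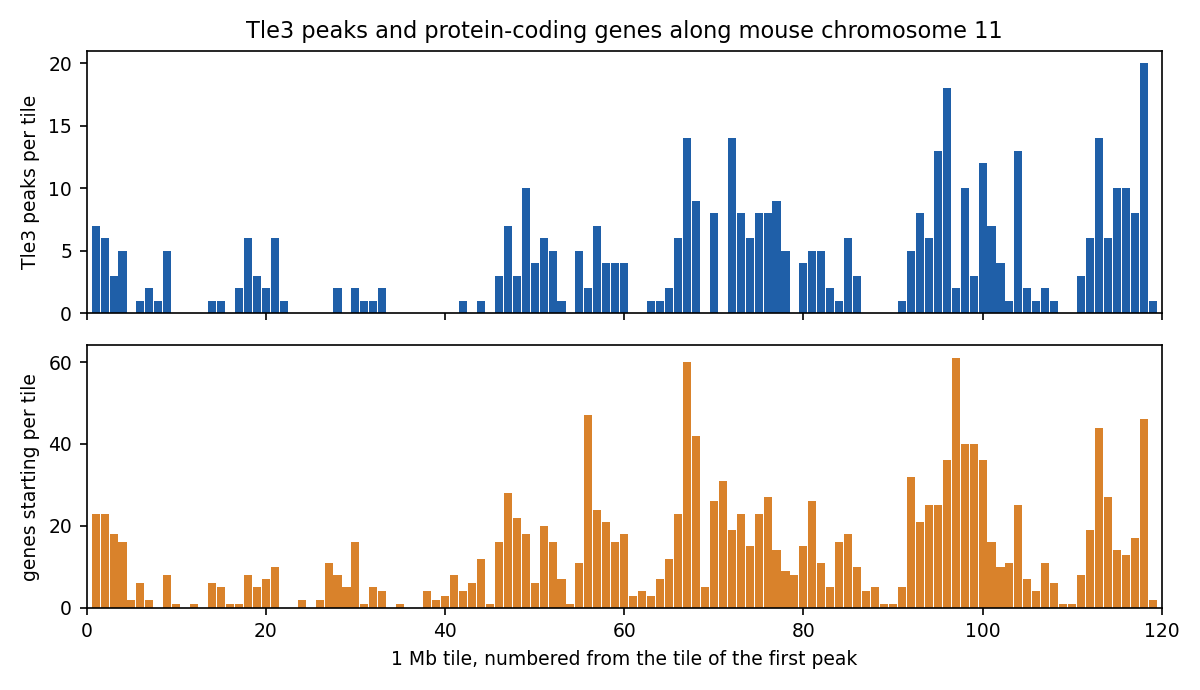
Tle3 peaks (top) and starts of protein-coding genes (bottom) in each of the 119 tiles of 1 Mb, numbered in order from the tile of the first peak. The fullest tile holds 20 peaks, 34 tiles hold none, and the tallest gene bar is the keratin tile, with 61 genes and 2 peaks.

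The 5 fullest tiles were picked for their many peaks, and over all placed genes 14.0% had a peak at an end. The fullest tile, 120000001 to 121000000, held 20 peaks and 46 genes. Peaks lay at an end of 14 of these genes, among them Fasn, the fatty acid synthase, P4hb, a protein disulfide isomerase, Alyref, an mRNA export factor, and Anapc11, a subunit of the anaphase-promoting complex. The tile 98000001 to 99000000 held 18 peaks and 36 genes, with peaks at Cdk12, a kinase of RNA polymerase II, Casc3, of the exon junction complex, and Psmd3, a proteasome subunit. In it lay the 5 peaks at or inside Rara, the retinoic acid receptor alpha gene, with scores from 55.26 to 274.

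Another 3 tiles held 14 peaks each. From 69000001 to 70000000 there were 60 genes, 13 with a peak at an end, such as Polr2a, the largest subunit of RNA polymerase II, Eif4a1, Gabarap, Dvl2 and Chd3. Here 4 peaks in 9.62 kb (69804911 to 69814534) lay at starts of Gabarap, Phf23 and Dvl2, with scores of 55.26, 70.55, 112 and 107. From 115000001 to 116000000 there were 44 genes, 6 with a peak at an end, among them Grb2. That share was close to the 14.0% of all placed genes. From 74000001 to 75000000 there were only 19 genes, 4 with a peak at an end. In this tile 5 peaks lay at starts. Rap1gap2, which acts on the Rap1 GTPase, held 5 peaks inside it with scores of 55.42, 58.66, 155, 73.44 and 89.53. Mnt had 1 of 164 at its start and others of 81.78 and 82.53 inside it.

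The other groups of 4 peaks lay in and beside Per1, the circadian repressor (68901510 to 68913917, highest score 120), at Fmnl1, a formin of blood cells (103032185 to 103040088, highest 157), and around Pgs1 (117835886 to 117853671, highest 92.89). Ksr1, a scaffold of the RAF and MEK kinases, held 3 peaks inside it, with scores of 195, 55.6 and 198. Kdm6b, a histone H3K27 demethylase, also held 3, with scores of 93.83, 114 and 74.73.

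Long empty stretches held few genes. The longest gap ran over 8.63 Mb from 35657948 to 44283325 and contained 19 protein-coding genes, among them the cell cycle genes Ccng1, Hmmr and Pttg1 and the cytokine gene Il12b. The next ran over 6.01 Mb from 24085553 to 30097913, just after a peak of score 72.66 beyond Bcl11a, with 15 genes. The gap of 4.97 Mb from 88861182 to 93829221 held 16 genes including Hlf, a transcription factor of blood stem cells. The gap of 4.79 Mb from 11950989 to 16741999 held 4 genes. The gap of 3.23 Mb from 110316502 to 113544822 held Sox9 and 6 others, and that of 2.76 Mb from 17059812 to 19819894 held Meis1, a HOX cofactor of blood stem cells, and 4 others. Together these 6 gaps held 66 genes in 30.4 Mb, or 2.17 per megabase, against 13.4 over the whole span. The peaks at the edges of these gaps had scores from 50.94, near the lowest of the list, to 212. Assembly gaps and sequence on which reads cannot be placed were not examined.

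A few stretches were rich in genes yet poor in peaks. The tile 73000001 to 74000000 held 31 genes and 0 peaks, and 23 of its genes were olfactory receptors. The tile 99000001 to 100000000 held 61 genes, 44 of them keratins or keratin-associated proteins, and 2 peaks. The tile 58000001 to 59000000 held 47 genes, 21 of them olfactory receptors, and 2 peaks. The tile 101000001 to 102000000 held 40 genes and 3 peaks, and none of its genes belonged to either family.

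A peak midpoint lay within 1 kb of an end of 221 of the 1578 placed genes (14.0%, 12.3 to 15.8%), against 48 (3.04%) and 43 (2.72%) after the shifts. Gene lists written from general knowledge, with earlier results of these data known, were read against this 14.0%. That share also counts the 83 olfactory receptor genes, of which 0 had such a peak, and the 50 keratin genes, of which 1 did. The 13 lists together had 317 distinct genes, 32 of them with a peak at an end. The counts describe each list without a test.

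Corepressor and chromatin genes had the highest share, with a peak at an end of 14 of 25 (56.0%, 34.9 to 75.6%). Among them were Ncor1, which encodes the nuclear receptor corepressor (score 69.26), and Hdac5, a class IIa histone deacetylase (84.89). The Polycomb genes Suz12 (61.95), Cbx8 (59.01) and Pcgf2 (62.79) each had a peak at an end. Jmjd6 had the highest score of the list at a gene end, 155, and Aff4, of the super elongation complex, had 100.2. Chd3 and Bptf, of chromatin remodelling complexes, had 61.92 and 86.98. Also in this group were Phf12 (52.98), Phf23 (70.55), Smarcd2 (56.33) and Sirt7 (50.71). Those named had the peak at a start except Sirt7, where it lay at the far end, and Chd3, whose strand is not in the table. Kansl1 had a peak at an annotated start within the gene. Kdm6b, whose strand is not in the table, had peaks only inside it. No peak lay at or inside Cbx1, Cbx2, Ezh1, Gps2, Kat2a, Kat7, Smarce1, Sap30l or Aatf.

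Blood transcription factors had a peak at an end in 5 of 24 genes (20.8%, 7.13 to 42.2%). These were Irf1 (69.89), Mnt (164), Rel (88.89), Stat3 (129) and Stat5a (61.97), all at starts. Irf1 is an interferon response factor, Rel an NF-kB subunit, and Stat3 and Stat5a carry cytokine signals to the nucleus. Away from the outermost ends, Ikzf1, which encodes Ikaros, had a peak of score 125 at an annotated start within the gene (11585771 to 11586548). Bcl11a had a peak of 59.86 inside the gene (23981255 to 23981756), and Sp2 (63.52) and Mafg also had peaks inside. Hic1 (94.98), Stat5b (53.93) and Rara had peaks at annotated starts within the gene. With starts within genes counted too, 9 of the 24 had a peak at a start. Of all placed genes with a strand 221 of 1252 (17.7%) did. No interval was computed for the 9. The other 12 genes of the list had no peak at or inside them. For Tcf7, the T cell member of the TCF family, the nearest peak was 22.0 kb from the outermost start, for Ebf1 148 kb and for Meis1 901 kb.

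Cytokine and growth factor signalling genes had 6 of 32 (18.8%, 7.21 to 36.4%), Nf1, Nf2, Grb2, Socs7, Stat3 and Stat5a. The peak at the start of the adaptor gene Grb2 scored 135 (115569368 to 115570373). Egfr and Grb10 held peaks inside, and Stat5b had a peak at an annotated start within the gene. The cytokine genes Il3, Csf2, Il4, Il5, Il13, Csf3, Lif and Osm had none. Of the Wnt and TCF pathway 2 of 15 had a peak at an end (13.3%, 1.66 to 40.5%), Dvl2, which relays Wnt receptor signals (107), and Ppp2ca, a phosphatase subunit (66.66). Wnt9a and Csnk1d held peaks away from their ends, and the other 11, among them Axin2, Jup and Nlk, had none. The list written for cell cycle and repair had 4 of 20 (20%, 5.73 to 43.7%), Cdc27, Cdk12, Cdk5r1 and Ppm1d. Cdk5r1 was the highest at 195, and its role in the cell cycle or repair was not checked. Trp53, Top2a, Aurkb, Birc5 and Brca1 had none.

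Among the remaining lists, the intervals of the olfactory receptor and keratin genes lay below the 14.0% of all placed genes, and those of the others included it. Of 20 markers of mature blood and vessel cells, Itgb3, the platelet integrin subunit, had a peak at an end (58.45), and Pecam1 had a peak inside. Cd300lf had 1 peak at an annotated start within the gene (72.88) and another inside it (61.59). The alpha-globin genes Hba-a1, Hba-a2 and Hba-x, the granulocyte genes Mpo, Epx and Lpo, and Cd79b, Cd7 and Itga2b had none. There was a peak at an end of 0 of 83 olfactory receptor genes (upper limit of the exact interval 4.35%), 0 of 10 Hoxb genes (30.8%), 0 of 11 Ccl chemokine genes (28.5%) and 0 of 8 Schlafen genes (36.9%). Hoxb3 had 2 peaks inside, and Ccl4 had 1. Of 50 keratin genes 1 had a peak, Krt10, at its far end (62.45), and of 7 myosin heavy chain genes 1, Myh10, at its start (51.78). Genes of cytosolic and mitochondrial ribosomal proteins, which are used in nearly every cell, also had 0 of 18 (upper limit 18.5%).

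**Figure D5:**
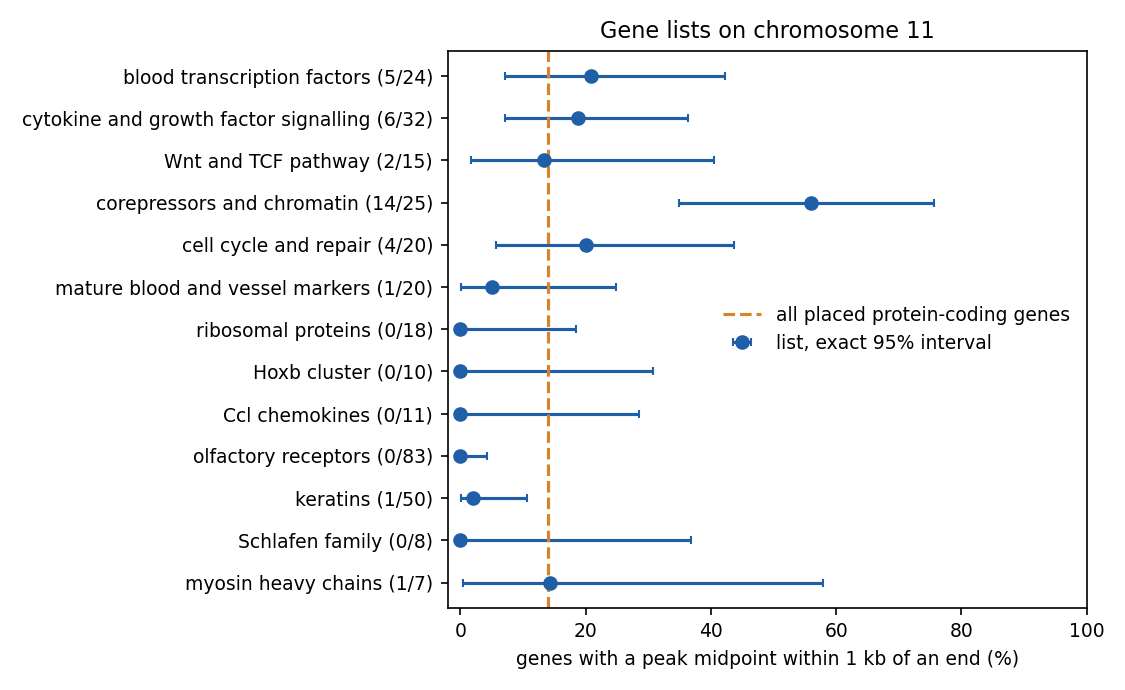
Share of the genes of each list with a Tle3 peak midpoint within 1 kb of an end (%), with exact 95% intervals; counts stand beside the names and the dashed line is the 14.0% over all placed protein-coding genes. The corepressor and chromatin list lies at 56.0%, and the interval of the olfactory receptors ends at 4.35%. The lists were written with earlier results of these data known.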

How the data were processed

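The series held 2 libraries, 1 Tle3 and 1 control, and 1 peak list. Build mm9, the aligner Bowtie2 and the peak caller MACS 1.4 are named per the submitters' processing notes. Their settings and any filter on reads were not stated there. The score deposited by the authors for each peak is that of MACS, in which it is the negative log10 of the p-value multiplied by 10. It rises with sequencing depth, and the list gives no reads, so the depth is unknown. Starts were counted from 1. Offsets from 0 to 300 kb in steps of 250 bp were fitted by dynamic programming with a penalty of 6 matched peaks per change, and a stretch counted as matched where the exact 95% interval at the offset lay above those 20 kb to either side. Of 1609 protein-coding genes 1578 were placed, leaving out those beyond the outermost peaks or between stretches. Gene starts came from the RefSeq promoter table, matched by gene identifier. Promoter windows ran from 250 bases before to 50 after the start. Rps6kb1, a kinase whose symbol fits the pattern for ribosomal proteins, was taken out of that list. Named peaks were the 20 highest scoring, the 5 widest, the groups of 4, the 5 fullest tiles and the 6 longest gaps; genes were named at those peaks or from the lists, and a few are not reported here. Genes beside peaks that lie between genes, Ksr1, Kdm6b, Rap1gap2 and the gene-rich, peak-poor tiles were chosen after their values were seen. The regions and lists were chosen with earlier results of these data known. Other thresholds, windows, tiles, shifts and merging of near peaks were tried. Python 3.11.15, numpy 2.4.6, pandas 2.3.3 and SciPy 1.17.1 were used.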

Additional observations from a re-analysis of the deposited data

How the results depend on the processing

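No paired analysis was possible because each antibody had a single library and the peaks form 1 list. Of 46.0 alternatives 28.0 gave values inside the 95% interval of the main value or, for counts of genes, within 1.5 times of it. With scores of at least 100 alone, 102 peaks remained. There were then 0.870 peaks per megabase, a median gap of 537 kb, a neighbour within 10 kb for 12.7% of peaks, 51.7% empty tiles and a median width of 952 bp. The share of these peaks at gene ends was 54.9%, 66 genes and 9 genes of the lists had a peak at an end, and RUNX, NRF1 and GC box letters were in 35.1%, 17.6% and 63.5% of their promoters. Without gaps of over 1 Mb the density was 7.67 peaks per megabase. Merging peaks less than 1 kb apart left 20.7% with a neighbour, and 59% had one within 50 kb. Tiles of 500 kb were empty in 44.3%. Only 5.92% of peaks scored 200 or more. The share at gene ends was 55.1% within 2 kb, where 16.6% and 15.3% of shifted midpoints lay, and 51.5% with all gene types, against 11.8% and 13% after the shifts. Smaller sets, wider windows and more genes follow from how these alternatives are built. Without read counts the list cannot show how many weaker sites fell under its lowest score.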

Other observations

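Of the 82 microRNA hairpins of the RefSeq table placed in the 3 stretches, 5 overlapped a peak as placed, and these lay under 4 peaks. Offsets are known to about 1 kb, more than the width of any of these peaks, so no single overlap is settled. Mir132 and Mir212, neighbouring hairpins on the plus strand, both lay under a peak at 74986612 to 74987331, with a score of 80.12 and a width of 720 bp. Their 3p products are given here because they share bases 2 to 8, the seed that pairs with targets, which is in capitals.
miR-132-3p: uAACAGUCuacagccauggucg
miR-212-3p: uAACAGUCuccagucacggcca

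The 5p products of the same hairpins have different seeds, ACCGUGG and CCUUGGC. This peak is the last of 3 between 74971845 and 74987331, and the middle one, of score 94.98, lies at a start within Hic1, a zinc finger repressor gene. The other hairpins under peaks were Mir7671 (score 91.03), Mir8101, at the Hdac5 start peak (84.89), and Mir1932 (64.34). No share of hairpins after the shifts was computed, so the 5 stand as a count.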
